A study of Mus musculus with 48 samples.

Results

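Skin from mice given 1 of a pair of Janus kinase (JAK) inhibitors was compared directly, inhibitor against inhibitor, at week 13 of treatment. The 6 arrays were chosen by their titles, 3 for the group titled jak3i and 3 for the group titled jak12i, out of 48 arrays in the series. From what is known of the study, jak3i is tofacitinib and jak12i is ruxolitinib, and those names are used below. All animals were C3H/HeJ mice in a model of alopecia areata, an autoimmune loss of hair that in this strain is passed on by grafting skin from an affected mouse, and the grafting is shared by treated and vehicle groups. The labels give the treatment length of these arrays as 12/13 weeks and the tissue as skin. They state no dose, age or sex and tie neither agent to a route, so agent, dose and route cannot be told apart. From what is known of the study, tofacitinib was delivered by an implanted pump and ruxolitinib by gavage, and 3 phosphate-buffered saline (PBS) pump arrays and 3 PBS gavage arrays at week 13 stand beside them as vehicles. The same agents were also profiled at week 6, in 5 arrays each.

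JAK kinases sit in pairs on the tails of cytokine receptors and pass the signal on to STAT transcription factors. JAK1 and JAK3 serve the receptors that use the common gamma chain, among them the IL-15 and IL-2 receptors, while JAK1 and JAK2 serve interferon gamma, and JAK2 serves several hormone receptors. Tofacitinib and ruxolitinib share a pyrrolopyrimidine core that occupies the kinase ATP site, and differ in its attachment, a piperidine carrying a cyanoacetyl group in tofacitinib and a pyrazole carrying a cyclopentyl nitrile in ruxolitinib. In alopecia areata, cytotoxic T cells gather around growing hair follicles. Follicles cycle between growth (anagen), when matrix cells divide and differentiate into the hair shaft and the inner root sheath, and rest (telogen), when hair keratins are not made, and the fat layer under the skin changes with that cycle.

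Signals are log2 values, so a difference of 1 is a doubling, and each difference below is tofacitinib minus ruxolitinib with its standard error. A gene was called when its adjusted p in limma was under 0.05 over the 13648 genes tested. Keratins of the basal epidermis were not called: Krt5 differed by 0.00 (95% interval -0.25 to 0.25) and Krt14 by 0.17 (-0.10 to 0.43), both near a signal of 13 in the 6 arrays. Skeletal muscle genes were bright in both groups, with a list mean of 12.5 to 12.8 in tofacitinib and 12.1 to 13.2 in ruxolitinib arrays, so the samples held muscle RNA too. Over all probe sets, arrays correlated at 0.987 to 0.991 within a group and at 0.978 to 0.988 between groups, and tofacitinib replicate 1 was close to ruxolitinib replicate 1 (0.988). The series speaks of biological replicates but names no animals, so p-values here cover the variation from array to array.

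Tofacitinib skin had far more RNA of the hair shaft and inner root sheath than ruxolitinib skin. A few called genes of matrix remodelling were higher there too. Among the genes lower in tofacitinib skin were several of lipid metabolism and a few of lymphocytes. In whole skin, fewer cells of a type and less RNA per cell cannot be told apart. In all, 179 genes (1.31% of those tested) were called, 101 (0.74%) higher and 78 (0.572%) lower in tofacitinib skin. Of the 101, 64 differed at least 2-fold and 25 at least 16-fold, against 13 of the 78 at least 2-fold. At an unadjusted p under 0.05 there were 1837 genes (13.5%), and 48.2% of all genes tested were brighter in tofacitinib skin. Counts of list members below stand against these shares, and genes of a list can move together. The 3 and 3 arrays did not overlap for 2512 of all genes (18.4%) and for 178 of the called ones. An exact permutation of 3 arrays against 3 cannot give a two-sided p below 0.10, so single genes rest on the fit across all genes.

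The number of calls depended on which arrays entered the fit. All of the 179 kept their direction, but leaving out arrays could not have reversed the 178 whose arrays did not overlap. With spread estimated from week 13 arrays only, no gene was called (1569 at an unadjusted p under 0.05, smallest adjusted p 0.0818), and with the 6 arrays alone 76 were, of which 37 were among the 179. Leaving out tofacitinib replicate 1, 2 or 3 gave 232, 52 or 8 calls, and leaving out ruxolitinib replicate 1, 2 or 3 gave 110, 69 or 20.

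Hair follicle genes had the largest differences, and every one that was called was higher in tofacitinib skin. Of 17 tested genes of the hair shaft list, 9 were higher in tofacitinib skin (0.74% of all genes tested were) and none lower. The median difference was 4.07 against -0.01 over all genes tested. Of 11 inner root sheath genes, 4 were higher and none lower (median 4.21), and of 13 genes of the hair matrix and its growth signals, 3 were higher and none lower (median 0.86). None of 13 bulge and resting follicle genes was called (median -0.22, 3 at an unadjusted p under 0.05). The mean of the hair shaft list was 9.85, 11.20 and 11.15 in the tofacitinib arrays and 7.52, 6.93 and 6.54 in the ruxolitinib arrays. It was 10.35, 9.75 and 11.78 in PBS pump and 9.99, 9.55 and 11.32 in PBS gavage arrays. The tofacitinib arrays therefore lay within the range of both vehicles, and the ruxolitinib arrays lay below every one of them.

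Type I hair keratins, the acidic partners of the shaft filament, include Krt31, Krt33a, Krt33b and Krt34. Krt34 gave 10.76, 11.62 and 12.29 in tofacitinib arrays and 6.35, 5.87 and 5.66 in ruxolitinib arrays. The groups stood far apart, with no array between them, and the difference was 5.60 ± 1.36 (48.3-fold, adjusted p = 0.0298). Krt31 gave 9.40, 11.62 and 11.17 against 6.74, 6.02 and 6.06, a difference of 4.46 ± 1.11 (21.9-fold, adjusted p = 0.0339). Krt33a gave 10.83, 12.69 and 12.72 against 7.15, 5.54 and 4.80 (difference 6.25 ± 1.59). In both, tofacitinib replicate 1 was the lowest of its group and ruxolitinib replicate 1 the highest of its own. Their type II partners Krt81, Krt83 and Krt86 were higher as well, by 4.07, 3.40 and 6.03.

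Promoters are shown for Krt31, Krt34 and Krt33b, which are neighbours on chr11, and for Krtap11-1 on chr16, because these members of the shaft program moved together. Each is the 250 bases before the annotated start, from RefSeq on GRCm38.p6, minus strand, written 5′ to 3′. The spans are chr11:100050552-100050801, chr11:100041555-100041804, chr11:100029869-100030118 and chr16:89571184-89571433 in the order printed. Capitals mark matches, on either strand, to TTCNNNGAA (the STAT dimer motif), CTTTGAA (the LEF/TCF motif) and TATAAA (the TATA box).
Krt31: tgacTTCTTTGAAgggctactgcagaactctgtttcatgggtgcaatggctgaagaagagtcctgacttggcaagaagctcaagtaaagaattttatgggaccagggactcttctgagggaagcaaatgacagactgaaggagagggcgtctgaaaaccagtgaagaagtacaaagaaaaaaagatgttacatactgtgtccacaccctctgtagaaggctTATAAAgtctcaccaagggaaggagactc
Krt34: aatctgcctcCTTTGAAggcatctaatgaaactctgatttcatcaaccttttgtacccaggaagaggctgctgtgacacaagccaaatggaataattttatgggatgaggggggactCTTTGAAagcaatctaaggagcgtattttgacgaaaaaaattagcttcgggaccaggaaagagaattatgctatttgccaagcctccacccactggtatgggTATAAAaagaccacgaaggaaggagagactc
Krt33b: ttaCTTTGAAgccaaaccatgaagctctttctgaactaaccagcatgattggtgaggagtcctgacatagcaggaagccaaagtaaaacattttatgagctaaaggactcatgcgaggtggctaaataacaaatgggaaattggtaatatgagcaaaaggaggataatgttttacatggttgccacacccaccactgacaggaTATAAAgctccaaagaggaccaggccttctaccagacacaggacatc
Krtap11-1: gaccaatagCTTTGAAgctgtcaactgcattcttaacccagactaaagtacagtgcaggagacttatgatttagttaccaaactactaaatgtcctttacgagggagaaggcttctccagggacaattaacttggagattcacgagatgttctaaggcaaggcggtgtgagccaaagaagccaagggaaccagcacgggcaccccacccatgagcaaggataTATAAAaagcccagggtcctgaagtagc
In Krt31 the STAT and LEF/TCF matches overlap. TATAAA begins 29, 31, 47 and 28 bases before the start in that order.

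Promoters could be matched for 74 of the 101 higher and 56 of the 78 lower genes. TATAAA was found in 28.6% of 91 promoters of higher genes, 8.45% of 71 of lower genes and 7.41% of 13863 of all genes tested. CTTTGAA was found in 8.79%, 7.04% and 3.25%. Each promoter printed above holds both TATAAA and CTTTGAA, so those examples are not typical of the higher genes. TTCNNNGAA was found in 5.49%, 7.04% and 5.99% and the interferon response motif in 2.20%, 2.82% and 2.51%. CTTTGAA and TATAAA were searched after the genes were known, and a match is a stretch of letters, not a bound site.

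Keratin-associated proteins fill the space between keratin filaments in the shaft and are cross-linked to them. Only 14 of the 37 tested genes with a Krtap symbol, a group made after values were seen, were called. All 37 were brighter in tofacitinib skin (48.2% of all genes tested were), with no overlap of arrays (18.4% of all genes tested). Their median difference was 5.02, or 4.77 when the 22 genes whose ruxolitinib mean lay near background (below 5.38, the highest lower quartile of a week 13 array) were set to that level. Krtap6-5 gave 11.92, 12.05 and 12.82 in tofacitinib arrays against 4.84, 5.28 and 4.56. It was at least 119-fold higher in tofacitinib skin, with a fitted difference of 7.37 ± 1.89 (adjusted p = 0.0395). With any 1 array left out it was not called (adjusted p 0.0601 to 0.169). Krtap15 gave 11.45, 12.94 and 13.38 against 5.29, 5.88 and 5.13 (difference 7.16 ± 1.83, adjusted p = 0.0395). Krtap11-1 gave 11.53, 13.27 and 13.26 against 8.0, 6.30 and 5.72 (difference 6.02 ± 1.55). In all 3 genes every tofacitinib array was above every ruxolitinib array, which the rule for naming them required. Krtap7-1, Krtap1-5, Krtap4-16, Krtap14, Krtap22-2, Krtap19-9b, Krtap26-1 and the related Gm10229 and Gm10228 differed by 5.16 to 6.99. Of these, Krtap1-5, Krtap14, Krtap22-2, Krtap19-9b, Gm10229 and Gm10228 were likewise not called with any 1 array left out. Members of these families are close copies, so a probe set may read several of them and the single names are uncertain.

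The fit that gives the standard errors of these genes also holds the week 6 arrays. There, 2 of 5 ruxolitinib arrays were bright and the others dim. Those 2, replicates 2 and 3, were also close to each other outside hair genes. The B cell list mean was 8.94 and 8.90 in them, against 7.63 to 7.71 in the other ruxolitinib arrays. Whether they came from separate animals is not given, so they may not count as 2 samples. Krtap6-5 at week 6 gave 13.87 in ruxolitinib replicate 2 and 13.66 in replicate 3 and 4.65 to 5.35 in the other 3, an SD of 4.82. Its SD at week 13 was 0.49 in tofacitinib and 0.36 in ruxolitinib arrays.

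Inner root sheath genes shape and guide the growing shaft. Krt72, a sheath keratin, gave 8.64, 9.94 and 10.56 in tofacitinib arrays against 7.43, 7.36 and 6.95 (difference 2.47 ± 0.56, 5.53-fold, adjusted p = 0.0219). Tchhl1, a trichohyalin-like protein gene, differed by 4.49 ± 1.10 and Krt26 by 4.58 ± 1.23. Crym, which encodes a thyroid hormone binding protein, differed by 3.64 ± 0.96 (adjusted p = 0.0474). Padi3, the deiminase that converts arginine to citrulline in trichohyalin, gave 8.79, 10.42 and 10.50 against 6.14, 5.45 and 5.11 (20.2-fold, adjusted p = 0.0192). Again no ruxolitinib array reached the tofacitinib range in these genes, as held for 178 of the 179 called genes. With replicate number as a block, 8 hair shaft and 2 inner root sheath genes were called in place of 9 and 4, and 4 of the named follicle genes were no longer called: Crym (adjusted p = 0.0503), Krtap19-9b (0.0516), Gm10228 (0.0531) and Krt26 (0.0531).

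Regulators of the hair matrix differed less. Wnt10b, the Wnt ligand of the anagen matrix, gave 6.93, 7.16 and 7.40 against 6.69, 6.33 and 6.83, a difference of 0.55 ± 0.12 (1.46-fold, adjusted p = 0.0213). Msx2, a homeobox factor of the matrix, gave 8.11, 9.36 and 9.11 against 7.86, 7.29 and 7.15 (2.68-fold, adjusted p = 0.0466). The other probe set of Msx2 differed by only 0.15. Gprc5d, an orphan receptor of cortex cells, gave 8.71, 10.19 and 10.56 against 7.01, 6.87 and 6.79 (7.62-fold, adjusted p = 0.0376). Tofacitinib replicate 1 was the lowest of its group in each, just above the ruxolitinib arrays for Wnt10b and Msx2 and clearly above them for Gprc5d. Of all 101 higher genes, 72 had their lowest tofacitinib value in replicate 1, and the median SD was 0.63 in tofacitinib and 0.17 in ruxolitinib arrays, against 0.13 in each over all genes tested.

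Other compartments that change with hair growth were called rarely. Of 17 cornified envelope genes, Tgm3 alone was higher (7.89, 8.86 and 8.63 against 7.04, 6.95 and 6.79, adjusted p = 0.029); it encodes a transglutaminase that also cross-links hair shaft proteins. With the replicate block 2 of the 17 were higher. No melanocyte gene of 8 was called (4 at an unadjusted p under 0.05); Mlana differed by 2.10 (95% interval 0.61 to 3.58) and Tyr, tyrosinase, by 1.98 (0.44 to 3.51). Of 19 cell division genes none was called and none had an unadjusted p under 0.05, 18 being brighter in tofacitinib skin (median 0.36). Without tofacitinib replicate 2 or 3, or without ruxolitinib replicate 2 or 3, no hair shaft or inner root sheath gene was called, and without ruxolitinib replicate 1 only 1 of each list was; with the 6 arrays alone 11 hair shaft genes were.

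**Figure D1:**
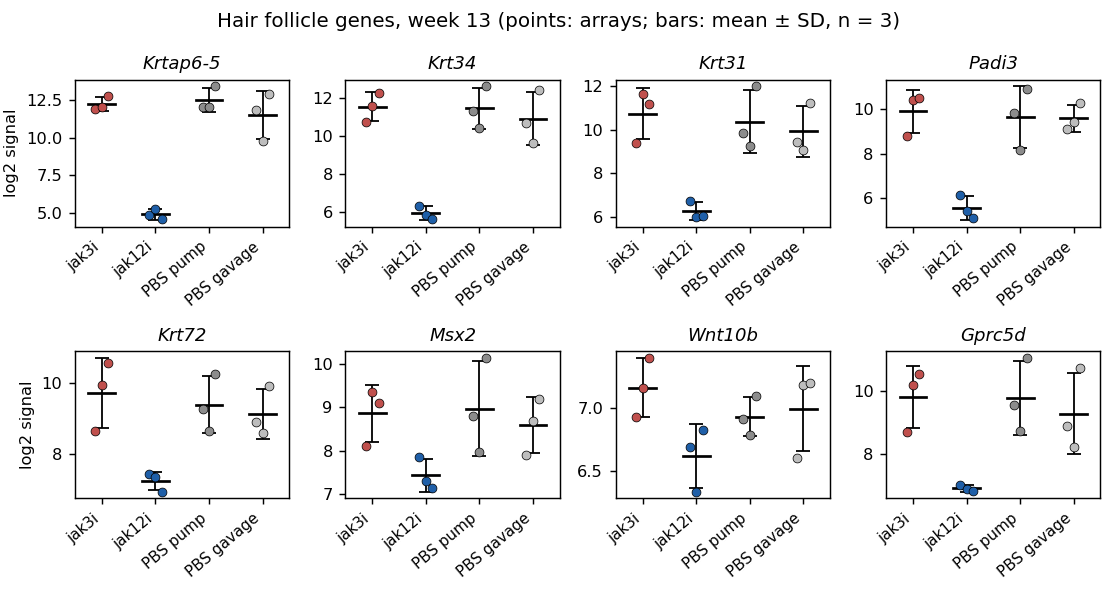
Log2 signal of 8 hair follicle genes in each week 13 array of tofacitinib (jak3i), ruxolitinib (jak12i) and the 2 vehicles, with mean and SD of 3 arrays. All 3 ruxolitinib arrays lie below all 3 tofacitinib arrays in each panel, as for Krt34 at 5.66 to 6.35 against 10.76 to 12.29.

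A few genes of matrix remodelling, grouped after their values were seen, were higher in tofacitinib skin. Among them was Cthrc1, which encodes a secreted collagen triple helix repeat protein made by activated fibroblasts. Cthrc1 gave 8.49, 7.90 and 10.04 in tofacitinib arrays and 6.21, 5.99 and 6.02 in ruxolitinib arrays. Every tofacitinib array was brighter than every ruxolitinib array, by 2.74 ± 0.46 on average (6.66-fold, adjusted p = 0.00323). Of the wound fibroblast list of 19 tested genes, 3 were higher and none lower (Cthrc1, Mmp13 and Adam12; median 0.19). Adam12, a membrane metalloprotease, gave 9.08, 8.51 and 10.27 against 7.73, 7.89 and 7.93 (2.71-fold, adjusted p = 0.0339). Mmp13, a collagenase, gave 5.13, 7.70 and 9.75 against 4.48, 4.67 and 4.53. It was at least 4.43-fold higher (adjusted p = 0.0205), but tofacitinib replicate 1 was itself near background.

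Mmp12, the elastase of macrophages, gave 8.87, 7.83 and 10.74 against 5.52, 6.06 and 6.01 (9.71-fold, adjusted p = 0.0436). Thbs4, a thrombospondin, differed by 1.87 ± 0.42 and Ccn4, a Wnt-induced matricellular protein, by 1.14 ± 0.27. Tofacitinib replicate 3 was the brightest array for all of these, and without it neither Cthrc1 (adjusted p = 0.063) nor any gene of the wound list was called. The macrophage list had its highest mean in the same array, 10.13 against 9.24 and 9.08 in the other tofacitinib and 9.56 to 9.76 in the ruxolitinib arrays; its part in the difference was not tested. All 18 collagen and dermal matrix genes were brighter in tofacitinib skin, yet none was called (6 at an unadjusted p under 0.05, median 0.55). That median was 0.19 without tofacitinib replicate 3, and 1 of the 18 was called without tofacitinib replicate 1. Mest, an imprinted gene linked to expanding fat, was higher by 1.30 ± 0.24 (adjusted p = 0.00746) with a tofacitinib mean of 7.96 against 6.24 to 6.69 in the 6 vehicle arrays.

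**Figure D2:**
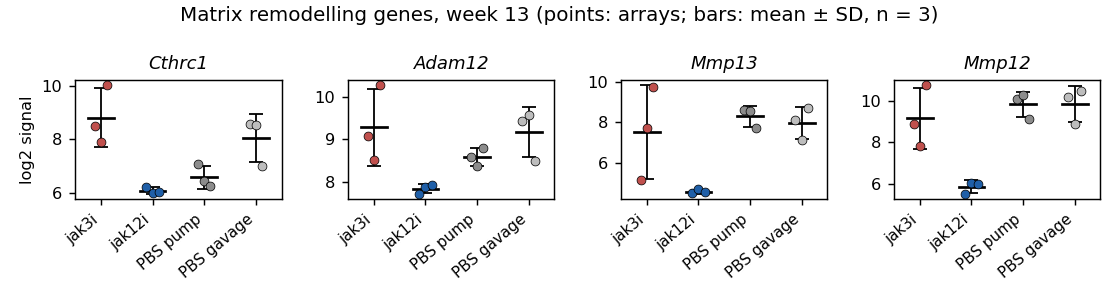
Log2 signal of 4 matrix remodelling genes in each week 13 array, with mean and SD of 3 arrays per group. Ruxolitinib arrays cluster tightly, as for Cthrc1 at 5.99 to 6.21, while tofacitinib arrays spread from 7.90 to 10.04.

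Of the 78 genes lower in tofacitinib skin, 31 have roles in fat cells or lipid metabolism, a grouping made after their values were seen, with differences of -2.75 to -0.32. They were picked from called genes only, and the share of such genes among all genes tested was not counted. The adipocyte and the lipid and sterol synthesis lists held 1 called gene each. Thrsp, a regulator of fat synthesis, gave 9.07, 9.38 and 6.28 in tofacitinib arrays and 11.14, 10.24 and 11.59 in ruxolitinib arrays. The groups did not overlap, which the rule for naming Thrsp required, and the difference was -2.75 ± 0.73 (adjusted p = 0.0488). With single arrays left out it ran from -3.31 to -1.76, with an adjusted p of up to 0.36. Retn, the fat cell hormone resistin, gave 11.28, 10.81 and 10.24 against 12.43, 11.92 and 11.96 (difference -1.32 ± 0.29, adjusted p = 0.0178). Mrap, the accessory protein of the ACTH receptor, gave 8.30, 7.97 and 7.28 against 9.16, 8.99 and 9.16 (difference -1.25 ± 0.22, adjusted p = 0.0043). Its partner Mc2r, the receptor itself, differed by -0.98 ± 0.23. Thrsp and Mrap each had another probe set with almost no difference (0.04 and 0.00), as did Klb (-0.01), Pcx (-0.01) and Acaca (0.05) below.

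Enzymes of lipid handling went the same way. Acaca, which makes the malonyl-CoA for fatty acid synthesis, differed by -0.72 ± 0.18, Pcx, pyruvate carboxylase, by -0.98 ± 0.25, and Gpat3, an acyltransferase of triglyceride synthesis, by -1.06 ± 0.23. Adig, adipogenin, differed by -1.04 ± 0.22, Klb, the FGF21 co-receptor, by -1.06 ± 0.27, and Abcd2, a peroxisomal fatty acid transporter, by -1.25 ± 0.29. Cyp2e1, a cytochrome P450, gave 10.22, 11.80 and 9.77 against 13.16, 12.15 and 12.66 (difference -2.06 ± 0.55, adjusted p = 0.0487). Cdo1, cysteine dioxygenase, differed by -1.36 ± 0.29. Ces1f, a carboxylesterase with near copies in the genome, differed by -1.92 ± 0.40. Each of these 9 genes was named because it was called. For Cyp2e1 the closest arrays, 11.80 and 12.15, lay near each other.

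Of the adipocyte list of 12 tested genes, only Retn was called, although 11 were dimmer in tofacitinib skin (median -0.51). Without tofacitinib replicate 1, 4 of the 12 were called, and without tofacitinib replicate 2 or 3 or ruxolitinib replicate 1 or 3 none was. The list mean was 11.20, 10.50 and 10.61 in tofacitinib and 11.51, 11.27 and 11.15 in ruxolitinib arrays, and 9.74 to 10.29 in the 6 vehicle arrays. Both treated groups therefore lay above the vehicles, and tofacitinib replicate 1 overlapped the ruxolitinib range. Of the 14 lipid and sterol synthesis genes, Acaca alone was called (median 0.01), and of 9 sebaceous gland genes none (1 at an unadjusted p under 0.05, median 0.14).

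The called genes of the lymphocyte lists were lower in tofacitinib skin. Of 10 tested cytotoxic lymphocyte genes, 3 were lower (0.572% of all genes tested were) and none higher, and all 10 were dimmer (median -0.64). Of 11 T cell receptor complex genes 1 was lower, Cd3g (median -0.34), or 2 with the replicate block. Without tofacitinib replicate 1 or 3, or ruxolitinib replicate 2 or 3, no gene of this list was called. Cd3g itself was not called with any 1 array left out (adjusted p 0.0523 to 0.209). The cytotoxic list mean was 6.18, 6.14 and 6.09 in tofacitinib arrays, 6.48, 6.98 and 7.0 in ruxolitinib arrays and 8.25 to 9.17 in the vehicle arrays, so both treated groups were well below the vehicles. Cd3g, a chain of the T cell receptor complex, gave 7.64, 7.86 and 7.39 against 8.35, 8.75 and 8.69 (difference -0.97 ± 0.25, adjusted p = 0.0441). Ctsw, cathepsin W of cytotoxic cells, gave 7.62, 7.56 and 7.84 against 8.09, 8.86 and 9.01 (difference -0.98 ± 0.21, adjusted p = 0.0178). Gzmc, granzyme C, gave 6.05, 5.81 and 5.47 against 6.52, 7.83 and 8.41 (difference -1.81 ± 0.48, adjusted p = 0.0472). None of the 3 genes overlapped between groups, as held for 178 of the 179 called genes. Ruxolitinib replicate 1 was the dimmest ruxolitinib array in each.

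Cst7, cystatin F of cytotoxic granules, differed by -0.80 ± 0.19 (adjusted p = 0.0298), and Il18r1, the IL-18 receptor chain, by -0.57 ± 0.15. Cd7, a lymphocyte surface protein, gave 7.21, 7.68 and 7.47 against 8.12, 8.42 and 8.12 (difference -0.77 ± 0.16, adjusted p = 0.0129). The most secure immune call was Ifi27l2a, an interferon-induced gene, at 10.77, 10.83 and 10.44 against 12.22, 12.53 and 12.01. Its groups were far apart, by -1.58 ± 0.25 (2.98-fold, adjusted p = 0.00157), and it was called with any 1 array left out (adjusted p 0.00215 to 0.0352). Without tofacitinib replicate 2 or 3, or ruxolitinib replicate 2 or 3, no cytotoxic gene was called.

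Effector genes central to the disease did not pass the test. Gzmb, granzyme B, gave 6.27, 6.23 and 6.26 against 6.59, 6.57 and 6.30 (95% interval of the difference -1.05 to 0.58), with vehicle means of 10.93 (pump) and 10.23 (gavage). Prf1, perforin, differed by -0.48 (-0.90 to -0.07, adjusted p = 0.275), Cd8a by -0.41 (-0.82 to -0.01, adjusted p = 0.359) and Nkg7, a granule membrane protein, by -1.06 (-1.65 to -0.47, adjusted p = 0.0556). Klrk1, the NKG2D receptor, differed by -0.34 (-0.86 to 0.17) and Ifng, interferon gamma, by -0.14 (-0.67 to 0.38). Ifng lay near background in both treated groups and Klrk1 in tofacitinib skin. A missed threshold does not show equal action of the agents.

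Interferon responses were dimmer in tofacitinib skin as lists without a single call. Of 22 type I interferon genes 13 had an unadjusted p under 0.05 (13.5% of all genes tested had), and 21 were dimmer (median -0.63). Ifit1 differed by -1.30 (-2.26 to -0.34) and Usp18, which removes ISG15 from proteins, by -1.06 (-1.66 to -0.46). Of 18 interferon gamma response genes 17 were dimmer (median -0.55), 3 of them at an unadjusted p under 0.05. Among these, Cxcl9 gave 7.92, 7.32 and 7.42 against 7.05, 8.78 and 8.41 (-2.02 to 0.97) and Ubd 5.32, 4.81 and 5.07 against 5.08, 6.51 and 5.47 (-1.70 to 0.46), so the arrays overlapped. All 11 MHC class I genes (median -0.36) and all 9 class II genes (median -0.35) were dimmer and none was called, with 7 and 4 at an unadjusted p under 0.05. Among them H2-K1 differed by -0.57 (-0.91 to -0.23) and Cd74, the class II invariant chain, by -0.55 (-0.87 to -0.23). With replicate number as a block, H2-Eb1 of class II (adjusted p = 0.0451) and Flt3, the dendritic cell growth factor receptor (0.0277), were called, at differences of -0.55 and -0.70. Without ruxolitinib replicate 1, 3 of the 9 class II genes were called lower, and without tofacitinib replicate 1, 1 of the 11 class I genes was.

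Ruxolitinib replicates 2 and 3 were the brighter ones for immune lists, with type I interferon list means of 8.53 and 8.16 against 7.74 in replicate 1 and 7.23 to 7.66 in tofacitinib arrays. The immediate early genes, which respond within minutes to handling or stimulation, were also highest in those arrays, at 11.42 and 11.30 against 9.36 in replicate 1 and 9.75 to 10.62 in tofacitinib arrays. The part of these in the immune differences was not tested. Of 14 immediate early genes none was called (2 at an unadjusted p under 0.05, median -0.47). Without ruxolitinib replicate 1 the median was -1.27 and 3 were called lower, while without ruxolitinib replicate 3 it was -0.09 and without tofacitinib replicate 1 it was -0.16, with none called.

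Components of the targeted pathway did not pass the test. Of 15 common gamma chain cytokine, receptor and JAK-STAT genes none was called (5 at an unadjusted p under 0.05, median -0.17). Il15 differed by -0.10 (-0.45 to 0.25), its receptor chain Il15ra by -0.38 (-0.60 to -0.15) and Il2rb by -0.33 (-0.63 to -0.03). Jak1 differed by -0.24 (-0.47 to -0.01), Jak2 by -0.12 (-0.29 to 0.04) and Stat3 by -0.17 (-0.40 to 0.05). Jak3 was not tested. Among 11 feedback targets of STAT factors none was called (3 at an unadjusted p under 0.05, median -0.24). Cish, the STAT5 target, gave 9.18, 9.51 and 8.90 against 9.22, 9.86 and 9.80 (-0.90 to 0.04), Socs1 differed by -0.03 (-0.37 to 0.30) and Socs3 by 0.06 (-0.63 to 0.76). None of 13 genes of the JAK2 hormone and cytokine receptor list was called (5 at an unadjusted p under 0.05, median -0.12); Ghr, the growth hormone receptor, differed by -0.41 (-0.75 to -0.08).

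In the remaining lists limma called no gene. Each is given by its tested genes, the number at an unadjusted p under 0.05 (13.5% over all genes tested) and the median difference. Among immune cells these were macrophage and complement (17, 2 and -0.19), dendritic cell (9, 2 and -0.46), neutrophil (9, 0 and 0.25), mast cell (8, 1 and -0.39) and B cell genes (7, 1 and -0.03). Regulatory T cell genes (9, 3 and -0.35), T cell chemokines (12, 1 and -0.33) and gamma delta or resident T cell genes (4, 2 and -0.16) followed. Among tissue lists they were epidermis (13, 1 and 0.00), injury keratins (11, 1 and 0.43), muscle (15, 0 and -0.13), endothelium (13, 2 and 0.20) and nerve (7, 2 and -0.15). Clock genes (16, 1 and -0.05), the glucocorticoid and metallothionein response (13, 1 and -0.43) and the integrated stress response (13, 3 and -0.11) completed them. Of 5 erythroid list genes 1 was called, Car2, a carbonic anhydrase also made by other cells, higher by 1.20 ± 0.31.

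**Figure D3:**
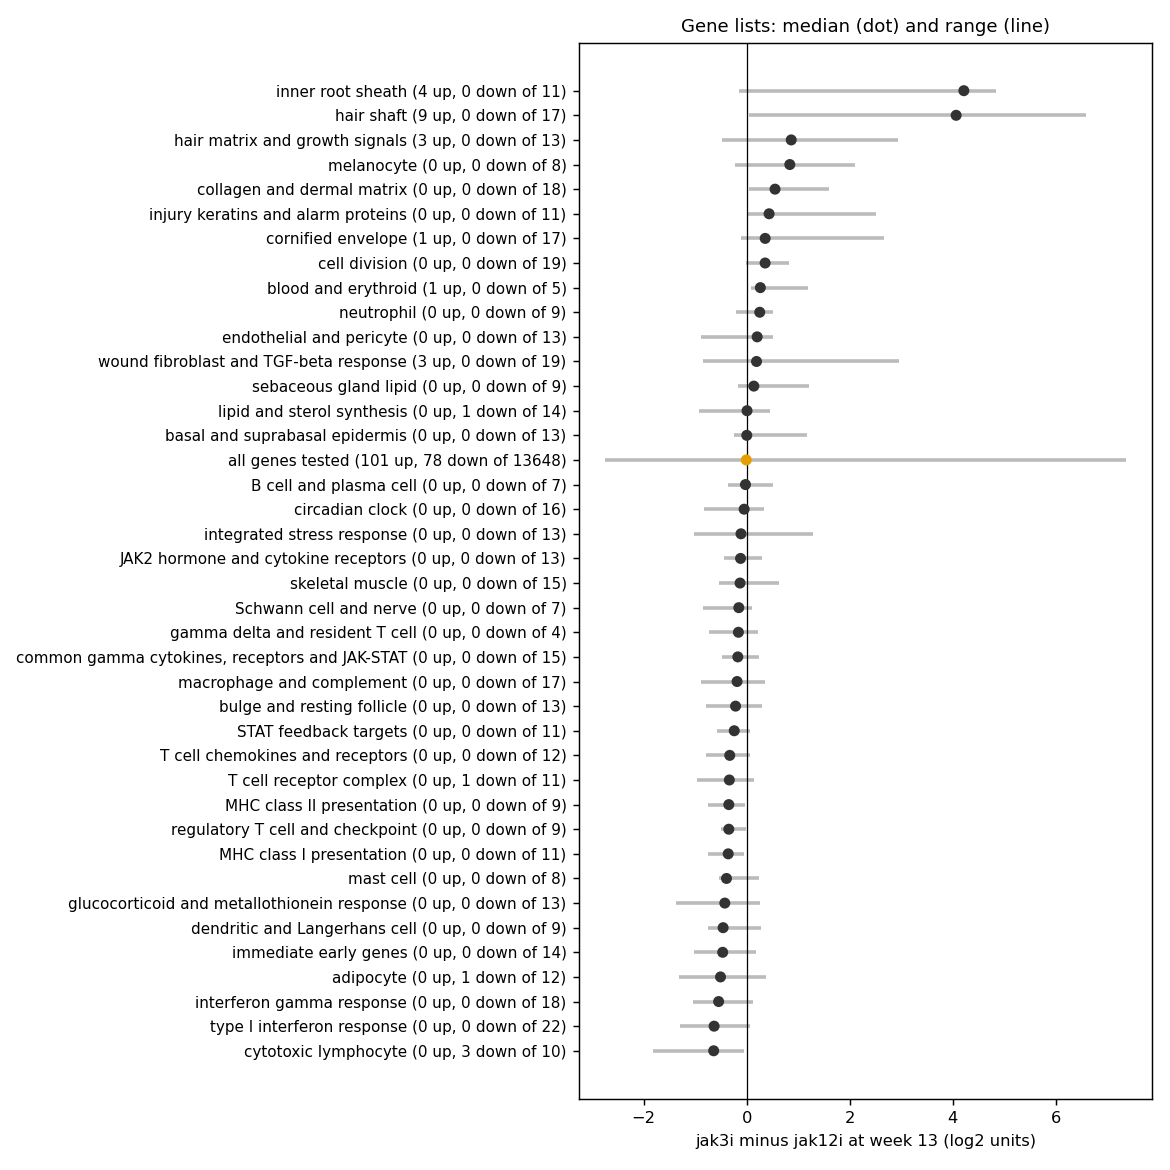
Tofacitinib minus ruxolitinib difference at week 13 (log2 units) for each gene list, as the median (dot) and the range of its tested members (line), with the number called in brackets; all genes tested are in orange. Hair shaft and inner root sheath stand at 4.07 and 4.21, and cytotoxic lymphocyte genes lie lowest at -0.64.

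**Figure D4:**
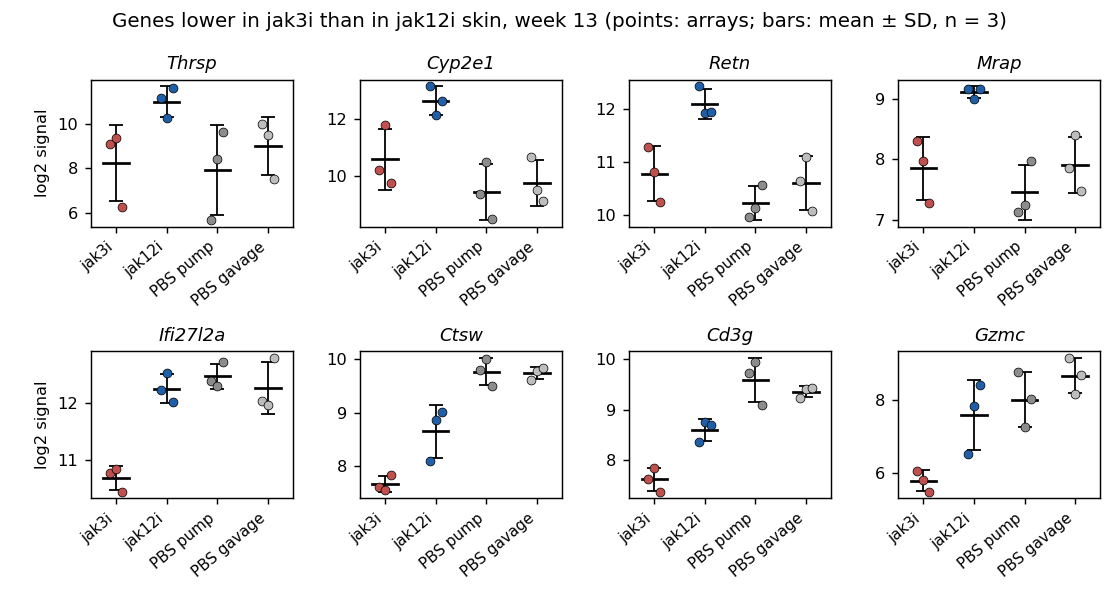
Log2 signal of 4 fat or lipid genes and 4 immune genes in each week 13 array, with mean and SD of 3 arrays. For Retn and Mrap the ruxolitinib arrays are the highest of the 4 groups, while for Ifi27l2a the tofacitinib arrays, at 10.44 to 10.83, are the lowest.

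The vehicle arrays place the difference between the agents beside the difference between their routes. PBS pump replicate 2 had a skeletal muscle list mean of 7.54, against 11.55 to 12.42 in the other PBS pump and PBS gavage arrays. The vehicle difference, and its subtraction below, include this array, and its part in them was not tested. PBS pump and PBS gavage differed in 7 genes (0.0513%; 1164 genes, 8.53%, at an unadjusted p under 0.05), of which only Matr3, a nuclear matrix protein gene whose probe sets ran from -0.70 to 0.55 between the agents, was among the 179. Of the 179, 144 had the same sign between the vehicles and 19 an unadjusted p under 0.05 there. For the 101 higher genes, the ruxolitinib mean was below both vehicle means in 96 and the tofacitinib mean above both in 52. For the 78 lower genes, the ruxolitinib mean was above both vehicle means in 63 and the tofacitinib mean below both in 30.

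When the vehicle difference was subtracted, Cthrc1 was the 1 gene called (0.00733%; 899 genes, 6.59%, at an unadjusted p under 0.05), at 4.20 (adjusted p = 0.00199). Its vehicles ran the other way, 7.07, 6.43 and 6.24 in PBS pump against 8.58, 8.54 and 7.0 in PBS gavage arrays. Of the 179 genes, 177 kept their sign and 133 had an unadjusted p under 0.05. Both counts rest partly on the difference by which the 179 were chosen, so they are no separate test. Krtap6-5 stood at 6.35 (adjusted p = 0.69) and Ifi27l2a at -1.78 (adjusted p = 0.0747) after the subtraction.

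At week 6 the agents differed in other ways. There 4517 genes (33.1%) were called between them, 1250 (9.16%) higher and 3267 (23.9%) lower in tofacitinib skin, but PBS pump and PBS gavage differed in 5078 genes (37.2%) at that week, so the agents cannot be told apart from what separates the vehicle arrays. The share of higher calls, 27.7%, was 42.5% after quantile normalization and 18.2% with array medians subtracted. Of the 179 week 13 genes, 71 had the same sign at week 6, 22 were called with that sign and 19 with the opposite one. The difference between agents itself changed between weeks for 2307 genes (16.9%), 129 of the 179 among them, with 75.7% higher, or 62.9% and 86.2% under those scalings. The 129 are no separate test, since that change contains the week 13 difference by which the 179 were chosen. The hair shaft list mean at week 6 was 6.84 to 7.26 in the 5 tofacitinib arrays, 11.13 and 10.91 in ruxolitinib replicates 2 and 3 and 6.79 to 6.92 in the other 3. Hair genes were thus bright in some ruxolitinib arrays at week 6 and in none at week 13. They were bright in no tofacitinib array at week 6 and in all 3 at week 13. Those ruxolitinib replicates 2 and 3 may not be separate animals, while the week 6 calls treat all 5 arrays as separate. Krt31 at week 6 gave 6.05 to 6.26 in tofacitinib arrays and 10.76 and 10.50 in those same ruxolitinib replicates. Cd3g was lower in tofacitinib skin at both weeks, at -1.46 in week 6 (adjusted p = 5.73e-07), and Il18r1 likewise, at -0.73 (adjusted p = 5.62e-06). The T cell receptor list as a whole had a week 6 median of 0.05, with 1 gene called higher and 2 lower. Retn differed by 0.22 at week 6 (adjusted p = 0.494) and Thrsp by -0.02 (adjusted p = 0.982).

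**Figure D5:**
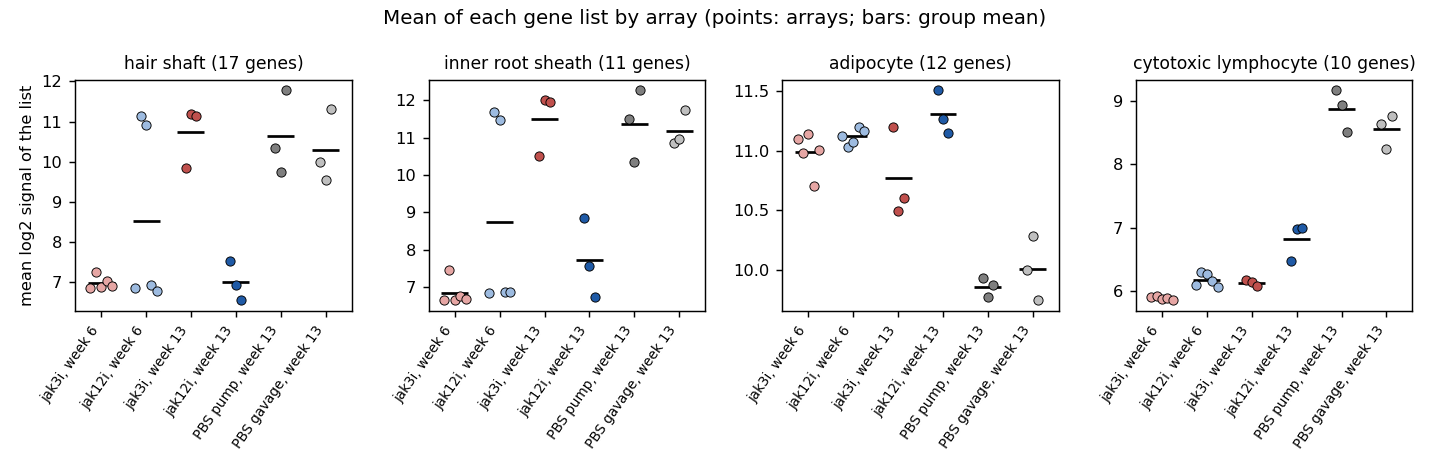
Mean log2 signal of 4 gene lists in each array of both agents at weeks 6 and 13 and of the week 13 vehicles; bars are group means. The hair lists are either near 7 or near 11 in most arrays, with ruxolitinib replicates 2 and 3 high at week 6 and all tofacitinib arrays high at week 13.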

How the data were processed

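The values are log2 signals of 45101 Affymetrix probe sets on 48 arrays as the authors deposited them, per the submitters' processing notes from RMA, its version not given in the sources used here. RMA corrects background, normalizes by quantiles and summarizes probes; whether all arrays were normalized together is not given either. RNA came from skin and was labelled by in vitro transcription per the labels. Precision is limited by how many arrays there are.

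Of the probe sets, 34958 name 1 gene, 932 several and 9211 none; symbols were updated by Entrez identifier. Each of 18194 genes took its probe set of highest mean over 47 arrays (9012 had several), and genes above the table's median (6.70) in at least 3 arrays were tested. One array with conflicting labels was in no group. Limma 3.58.1 (R 4.3.3) modelled group means across 47 arrays and moderated variances by empirical Bayes; p-values are two-sided, adjusted by Benjamini-Hochberg. Of the 179 genes called, 69 had several probe sets, with both signs in 16.

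Named genes are a panel of effector, interferon and JAK-STAT genes, the 15 largest rises and falls among called genes without overlap, up to 4 called members per list of smallest p, up to 2 for lists without calls, and Krt5 and Krt14. Krt33b, Krt81, Mest, Thbs4, Ccn4, Mmp12, Cd7, Il18r1, Mc2r and Matr3 were named after their values were seen. Members and lists were chosen with earlier results of these data known, and the Krtap, fat and matrix groups after their values were seen. Equal replicate numbers deviated together at week 13 (0.225, 0.257 and 0.120 over genes), so the numbers were taken as pairing there, and the replicate block is given where it changes a call. At week 6 (-0.147 to 0.145) and between vehicles (-0.108 to 0.288) they were not. Alternatives were quantile normalization, median centring, no filter, a filter on the mean, all probe sets, an intensity trend, fewer arrays and single arrays left out.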

Additional observations from a re-analysis of the deposited data

Results flagged for a closer look

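Of the genes described at week 6, 8 had a difference between the agents that itself differed between weeks (week 13 minus week 6, limma). It was positive for Krtap6-5 (11.06), Padi3 (5.32), Krt72 (3.29), Cthrc1 (2.33) and Per2 (2.24), and negative for Iigp1 (-3.13), Thrsp (-2.72) and Retn (-1.54). Per2, a clock gene, was lower in tofacitinib skin at week 6 by -2.13 and differed by 0.11 at week 13. Iigp1, an interferon-inducible GTPase, was higher in tofacitinib skin at week 6 by 2.08 and lower by -1.05 at week 13, where it was not called.

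Cthrc1 differed between the agents by 4.20 more than between their vehicles at week 13.

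At week 6, 1 of 5 tofacitinib arrays stood apart from the others for 5 genes. Replicate 2 was the brightest for Cthrc1 (8.14), Krtap6-5 (5.36) and Jak2 (9.44) and the dimmest for Iigp1 (8.36), and replicate 5 was the brightest for Ifng (5.42). Chance marks about 1 in 20 groups in this way, and Krtap6-5 and Ifng lie near background in these arrays.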

How the results depend on the processing

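The 179 calls of week 13 kept their direction under each alternative in which they were measured. With fewer arrays this was fixed in advance for the 178 genes whose arrays did not overlap. Calls fell to 0 with week 13 arrays only and to 76 with the 6 arrays alone, and ran from 8 to 232 when single arrays were left out. The other settings gave 126 to 238 calls. The share of higher genes was 89.5% with the 6 arrays alone. Of the 48 named genes called, 36 were called after quantile normalization and 44 with the replicate block, which gave 204 calls, 172 of them among the 179. With single arrays left out, only 1 of the 48 was called each time, and 8 were called in no case. Of the 81 named genes not called, 10 were called without ruxolitinib replicate 1. No other comparison's count moved by over 1.5 times under the block. The vehicle comparison gave 12 calls after quantile normalization and 0 to 15 with single arrays left out. The difference beyond the vehicles gave 2 after quantile normalization, 4 without the filter and 1 to 13 with single arrays left out. At week 6 calls ran from 4008 to 4405 and for the change between weeks from 1812 to 2424 with single arrays left out, and the share of week 6 calls higher in tofacitinib skin was 27.7%, 42.5% after quantile normalization and 18.2% with medians subtracted. For the change between weeks that share was 75.7%, 62.9% and 86.2%.

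Genes that were not called and changed sign were Krt5 (-0.016 after quantile normalization), and with all probe sets averaged Fcgr1 (-0.0655), Jak2 (0.0119), Per2 (-0.0925) and Socs3 (-0.0526). With single arrays left out, Krt5 ran from -0.11 to 0.12, Per2 from -0.52 to 0.58, Socs1 from -0.14 to 0.17, Socs3 from -0.18 to 0.22 and Myh4 from -0.63 to 1.26. The cause was not tested. Signals near background bound a difference from below only.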
